A study of Mus musculus with 6 samples.

Results

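Choroid plexus spots were examined in 6 Visium sections of the mouse brain. Visium places a tissue section on an array of barcoded spots of 55 μm diameter and counts the transcripts released over each spot, so that a spot holds several cells or parts of cells. A spot with at least 500 UMIs (unique molecular identifiers, the count of captured molecules) was taken as a choroid plexus spot when Ttr reached 30000 CPM (its UMIs per 1000000 UMIs of that spot). The 139 spots, of 20336 in all, were thus chosen by their measured Ttr level, which is given below as a description and not tested. All mice were untreated C57BL/6J males, with 2 mice and so 2 sections at each age: P21 (bred in the laboratory), adult (12 to 15 weeks) and aged (28 months, from the NIA). These sources are from the sample descriptions, whereas the paper names Jackson Laboratory as the supplier of the mice. Each section was a coronal slice of formalin-fixed, paraffin-embedded (FFPE) brain, and transcripts were read through pairs of gene-specific probes. The P21 and adult sections lay on Visium v1 slides, whereas the aged sections were transferred to Visium v2 slides with the CytAssist instrument. The paper also describes an enhanced probe design for the v2 libraries. The aged counts came from Space Ranger 3.1.1, the software that counts the reads, and the others from 2.0.0. Slide version, probe design, software version, source of the mice and age therefore cannot be told apart in aged vs. adult. Source and age may likewise go together in P21 vs. adult. Sections are the replicates throughout (n = 2 at each age), and p-values measure the spread between these 6 sections.

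The choroid plexus is a folded tissue inside the brain ventricles. Its cuboidal epithelium secretes cerebrospinal fluid and rests on a stroma of leaky capillaries, fibroblasts and macrophages, forming the blood-cerebrospinal fluid barrier. The epithelium carries ion channels, pumps and water channels that drive fluid secretion, imports folate and other nutrients, and releases carrier proteins and growth factors. Ttr encodes transthyretin, the carrier of thyroxine and of retinol-binding protein, and is by far the most abundant transcript of this epithelium.

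The spots numbered 20 of 3598 and 13 of 3314 in the P21 sections, 21 of 2917 and 9 of 3259 in the adult sections, and 49 of 3679 and 27 of 3569 in the aged sections. Their share was therefore between 0.276% (adult replicate 2) and 1.33% (aged replicate 1). The number of spots is given as a description, since it depends on where the brain was cut. Just inside the threshold, the lowest Ttr level of a chosen spot was between 30164 and 33178 CPM over the 6 sections. Just outside it, the highest level of a spot left out was between 24495 and 29932 CPM. A threshold of 20000 CPM would have taken 171 spots and one of 50000 CPM would have taken 103.

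**Figure D1:**
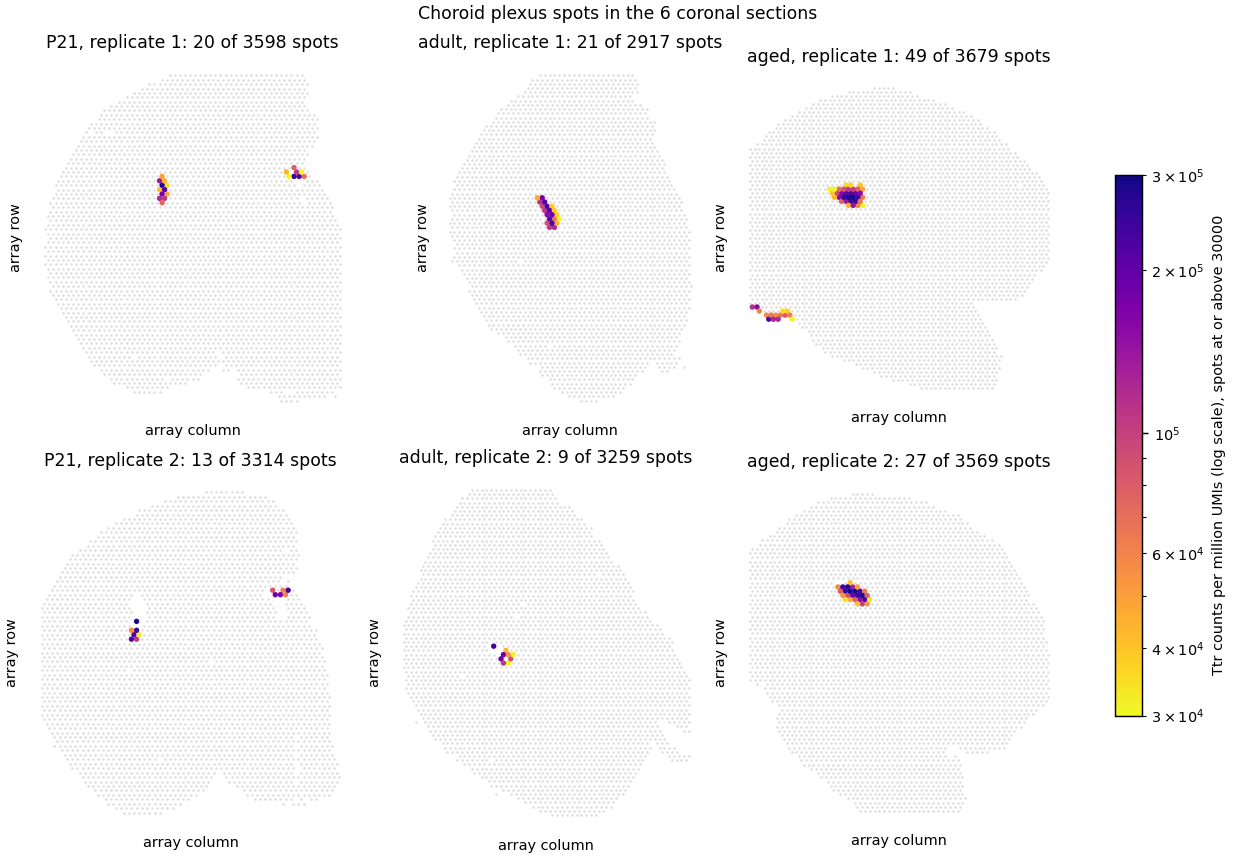
Position of the choroid plexus spots in the 6 coronal sections (grey: all other spots under tissue; axes: array column and array row; colour: Ttr in CPM on a log scale, from 30000 upward). The chosen spots form a compact patch in every section, a single spot stands apart in P21 replicate 2 and in adult replicate 2, and both P21 sections and aged replicate 1 hold another patch of 6 to 12 spots at the tissue edge.

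Most spots lay in compact patches. In adult replicate 1 and aged replicate 2 all 21 and all 27 spots touched each other in 1 patch, and the larger patches of the other sections held 12 spots (P21 replicate 1), 8 spots (adult replicate 2) and 34 spots (aged replicate 1). P21 replicate 2 held 2 patches of 6 spots. A single spot stood apart in P21 replicate 2 and another in adult replicate 2, and with 279363 and 234947 CPM they had the highest Ttr of their sections. A patch of 8 spots in P21 replicate 1 and 1 of the patches of 6 spots in P21 replicate 2 lay at the edge of the tissue and were rich in habenula transcripts. Tac2, a neuropeptide gene of the medial habenula, reached 552 and 366 CPM in these patches against 21.1 and 10.4 CPM in the other patch of 12 spots and the other patch of 6 spots. A patch of 12 spots at the edge of aged replicate 1 held 168 CPM of Tac2 and 12656 CPM of 15 summed neuron genes, whereas the patch of 34 spots of that section held 31.5 CPM and 1745 CPM. The 8 listed habenula genes summed to more than 300 CPM in these 3 patches and in none of the others, adult patches included. Kept spots lay on all 6 sides of 13 of 20 and 5 of 13 chosen spots at P21, 21 of 21 and 1 of 9 in the adult, and 38 of 49 and 25 of 27 in the aged sections. The surroundings of the chosen spots therefore differed between sections, also within an age, and results that moved with them are given also without these 3 patches, an alternative chosen after the data were seen.

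Their median depth was 44687 and 22903 UMIs per spot at P21, 38175 and 35845 in the adult and 16068 and 26482 in the aged sections, against medians between 12057 and 25535 UMIs in the other spots of these sections. The choroid plexus spots were the deeper class in 5 sections and the shallower in aged replicate 1, where the other spots held 19643 UMIs. Ttr took between 11.9% (P21 replicate 1) and 18.7% (aged replicate 2) of the UMIs of the chosen spots. Because Ttr chose the spots, it was left out of their sums. The sums held between 249862 UMIs (P21 replicate 2) and 1003268 UMIs (aged replicate 1), and CPM values below are relative to the UMIs without Ttr unless stated otherwise.

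The label held up against the other markers. Folr1 (ENSMUSG00000001827, chr7:101858331-101870788, minus strand), the folate receptor of this epithelium, Kl (ENSMUSG00000058488, chr5:150952607-150993817, plus strand), which encodes the anti-aging co-receptor and hormone klotho, and Clic6 (ENSMUSG00000022949, chr16:92485736-92541243, plus strand), a chloride channel gene, were not used by the rule. Coordinates are those of GENCODE vM21 on GRCm38. Folr1 had at least 1 UMI in every chosen spot of 5 sections and in 43 of 49 in aged replicate 1, against 2.31% to 15.1% of the other spots, with a median of 5 Folr1 UMIs per chosen spot in aged replicate 1 and 13 to 28 in the other sections. Clic6 was counted in every chosen spot except 1 of aged replicate 1, and in 14.6% to 24.8% of the other spots. Kl was counted in between 10 of 13 spots (P21 replicate 2) and 26 of 27 spots (aged replicate 2).

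These values are a description, since Ttr chose the spots in the same counts. Folr1 reached 879 and 1105 CPM at P21, 942 and 1004 CPM in the adult and 809 and 879 CPM in the aged sections, against 1.41 to 8.39 CPM in the other spots. Clic6 stood at 1012 and 1393 CPM, 1775 and 1808 CPM, and 2417 and 2075 CPM in the same order. Of 30 epithelium genes listed, 27 besides Ttr were measured, and all 27 were at least 4 times higher in the chosen spots than in the other spots of every section. Over all 11049 genes measured, 407 (3.68%) met this criterion and 0 were at least 4 times lower in every section. Mfrp, Ecrg4, Folr1, Tmem72, F5, Kcnj13, Cldn2, Aqp1, Clic6 and Kcne2 had the largest mean log2 ratios. Mfrp, a membrane-type frizzled-related protein gene outside the lists, was 100 to 949 times higher, and the water channel gene Aqp1 was 96.2 to 389 times higher. The genes at least 4 times higher included 18 of 23 motile cilia genes and 7 of 10 ependymal genes, and none of the 15 neuron, 15 macrophage, 10 oligodendrocyte, 8 microglia or 12 T and B cell genes.

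Transport and secretion genes followed. Among 27 ion and water transport genes, 11 were at least 4 times higher in every section, and they included Slc4a5, a sodium bicarbonate cotransporter gene (92.5 to 471 times), and Kcnj13, a potassium channel gene (83.9 to 472 times). Atp1b1, a sodium pump subunit gene abundant in neurons, stood at 0.583 to 0.779 of its level in the other spots. Among 23 secreted protein genes, 13 passed the 4-fold criterion. Enpp2, which encodes the lysophospholipase autotaxin, was 25.4 to 87.5 times higher, Igfbp2 was 21.3 to 35.8 times higher and Igf2 was 13.8 to 45.6 times higher. Among 29 nutrient and hormone transport genes, 13 passed, with the glucose transporter family gene Slc2a12 32.1 to 127 times higher and the lactate transporter gene Slc16a8 105 to 467 times higher. The claudin genes Cldn1 (41.0 to 80.7 times) and Cldn2 (96.9 to 841 times), whose proteins sit in epithelial junctions, were also high. So were the collagen genes Col8a1 (41.0 to 82.6 times) and Col8a2 (50.4 to 133 times). Plvap, a gene of fenestrated capillaries, was 35.6 to 199 times higher.

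Levels dropped off within a few spots. In CPM of all UMIs, Ttr went from 119004 CPM in the chosen spots of P21 replicate 1 to 14793 CPM in the adjoining spots and 805 CPM at 5 or more steps, and from 186552 CPM in aged replicate 2 to 16670 CPM and 31.7 CPM. The far level of Ttr was 805 and 768 CPM at P21, 604 and 385 CPM in the adult and 46.0 and 31.7 CPM in the aged sections. The chosen spots accordingly held 51.3% and 54.0% of all Ttr UMIs at P21, 72.8% and 61.5% in the adult and 91.2% and 92.9% in the aged sections. Both aged sections were apart from the other 4 in this measure, which goes with the slide version as well as with age, and the part of each was not tested.

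**Figure D2:**
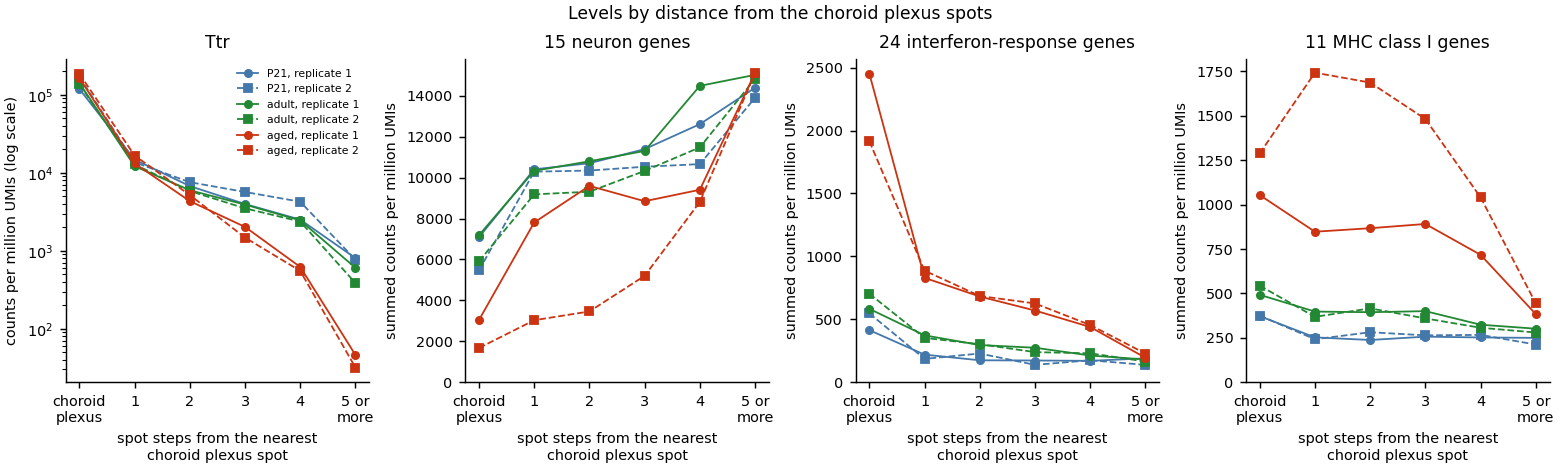
Levels by distance from the choroid plexus spots in each section (x axis: spot steps from the nearest chosen spot; y axis: CPM of all UMIs, on a log scale for Ttr and summed over the listed genes in the other panels; circles: replicate 1; squares: replicate 2). Neuron genes were lowest in the chosen spots of all 6 sections, and interferon-response genes reached 2452 and 1915 CPM in the aged chosen spots against 415 to 704 CPM in the other 4 sections.

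The chosen spots of a section differed widely in epithelium, neuron and oligodendrocyte transcripts. Within sections, the summed level of the 27 other epithelium genes followed Ttr with Spearman correlations of 0.93 to 0.99, a description over 9 to 49 spots that share a library. In aged replicate 1 the epithelium list spanned 3285 to 54949 CPM over 49 spots, and in adult replicate 2 it spanned 4803 to 36151 CPM over 9 spots. Neuron genes ran the other way, with correlations of -0.45 to -0.85. So did the 10 oligodendrocyte genes, with correlations of -0.17 to -0.90. Over all chosen spots of a section they summed to between 17065 CPM (adult replicate 1) and 31895 CPM (P21 replicate 1). In P21 replicate 1 this was above the epithelium list (16495 CPM). It was 0.749 times (P21 replicate 2) to 2.81 times (aged replicate 2) the level in the other spots.

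**Figure D3:**
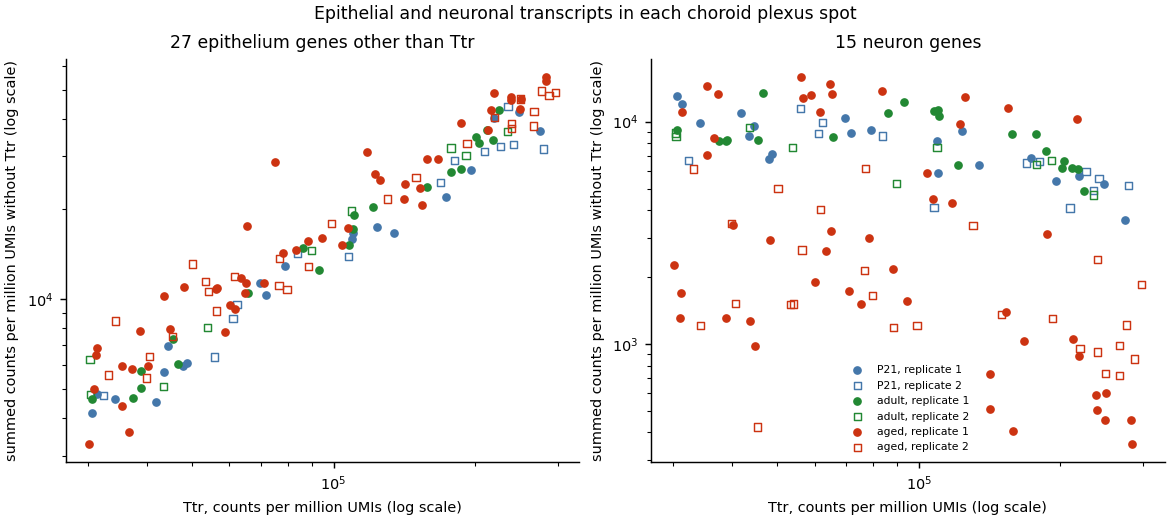
Summed epithelium genes without Ttr (left) and summed neuron genes (right) against Ttr in each of the 139 choroid plexus spots, in CPM on log scales (filled circles: replicate 1; open squares: replicate 2). Epithelium genes were high where Ttr was high at every age, and the median spot held 2609 and 1499 CPM of neuron genes in the aged sections against 6514 to 8426 CPM in the other 4.

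Neuron transcripts were fewer in the choroid plexus spots of the aged sections. The 15 neuron genes summed to 8044 and 6596 CPM at P21, 8379 and 6842 CPM in the adult, and 3646 and 2061 CPM in the aged sections. Both aged sums were below the other 4. The most abundant of these genes was Snap25, which encodes a synaptic vesicle fusion protein, with 1517 and 1329 CPM, 2332 and 1599 CPM, and 804 and 388 CPM. The 8 striatum genes, led by Ppp1r1b, summed to 1334 and 1137 CPM, 1473 and 1494 CPM, and 1798 and 2116 CPM, with both aged sums above the other 4. In spot sums, a transcript that is less abundant per cell and a cell type that fills less of the spot cannot be told apart.

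The first question was which transcripts of the choroid plexus spots differed between P21 and adult mice. In the edgeR quasi-likelihood test of the 6 section sums, 185 of 11045 genes (1.67%) were called (Benjamini-Hochberg adjusted p below 0.05, change of more than 1.5 times), of which 106 (0.96%) were higher and 79 (0.715%) were lower at P21. The median log2 fold change over all genes tested was 0.0002. Genes of the epithelium were among those lower at P21, whereas hemoglobin, collagen, habenula and sterol synthesis genes were among those higher. In the other spots of the same sections 3.66% of genes were higher and 2.02% were lower at P21. Sections did not overlap between the ages for 40.8% of all genes tested in the choroid plexus spots. The number of calls leaned on single sections, with 42 genes called without adult replicate 1, 89 without adult replicate 2 and 93 without P21 replicate 1, and DESeq2 called 57.

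Because spots were chosen at a set Ttr level, their epithelium content was in part fixed by the rule. Of the 27 epithelium genes tested, 6 were lower at P21 and 21 were not called, with a median log2 fold change of -0.44 against 0.0002 over all genes. The list median was -0.13 without P21 replicate 1 and -0.68 without P21 replicate 2. Kl measured 187 and 284 CPM at P21 and 435 and 437 CPM in the adult sections. Both P21 sections were below both adult sections, and the log2 fold change was -0.98 ± 0.21 (SE, edgeR adjusted p = 0.00799). Prlr, the prolactin receptor gene, measured 207 and 300 CPM against 459 and 444 CPM (-0.92 ± 0.20, edgeR adjusted p = 0.0120). The other 4 were Rdh5, a retinol dehydrogenase gene (-1.30), the potassium channel gene Kcnj13 (-0.94), the coagulation factor V gene F5 (-0.88) and Ace, the angiotensin-converting enzyme gene (-0.83). Folr1 had a log2 fold change of -0.00 ± 0.18, with overlapping sections. Clic6, at 1012 and 1393 CPM against 1775 and 1808 CPM, did not pass (-0.61 ± 0.19, edgeR adjusted p = 0.120), and neither did Enpp2 (-0.03 ± 0.20) or Igfbp2 (-0.01 ± 0.20).

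These calls leaned on single sections. None of the 6 calls remained without P21 replicate 1 or without adult replicate 1, and 1 gene was called without adult replicate 2. With the sums scaled to the epithelium genes themselves, an alternative chosen after the data were seen that centres this list by construction and so does not test its calls, the median of all genes moved to 0.23, and the split became 133 higher and 18 lower. Without the habenula-rich patches, 4 epithelium genes were lower, Kl among them (-1.28), while Kcnj13 (-0.84) and F5 (-0.81) kept similar changes and were no longer called.

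Transport and secretion genes that differed were all lower at P21. Of 26 ion and water transport genes, 4 were lower, and they were Car2, Kcnj13, Oxsr1 and Atp1b3. Car2, which encodes a carbonic anhydrase that supplies bicarbonate for fluid secretion, measured 488 and 656 CPM at P21 and 1101 and 1462 CPM in the adult sections (-1.20 ± 0.20, edgeR adjusted p = 0.000478). Car2 was also lower at P21 in the other spots (-1.30), where oligodendrocytes carry it. Of 23 secreted protein genes, 3 were lower (Trf, Kl and F5). Trf, the transferrin gene, measured 610 and 484 CPM against 1177 and 1340 CPM (-1.19 ± 0.19, edgeR adjusted p = 0.000287) and lost its call without the habenula-rich patches. Of 24 nutrient and hormone transport genes, Rdh5 and the vitamin C transporter gene Slc23a2 (-0.87) were lower.

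Sulfotransferase genes were near 0 at P21. Sult1c2 measured 6.13 and 4.002 CPM at P21, 54.4 and 42.0 CPM in the adult and 205 and 187 CPM in the aged sections (P21 vs. adult -3.13 ± 0.47, edgeR adjusted p = 0.000142). Sult1c1 had 0 UMIs in both P21 sections against 12.5 and 6.996 CPM in the adult, which makes it at least 3.90-fold lower at a floor of 3 counts over the group, and rose to 110 and 146 CPM in the aged sections (aged vs. adult 3.53 ± 0.36, edgeR adjusted p = 1.60e-07). Neither exceeded 0.347 CPM in the other spots at any age. Without the habenula-rich patches Sult1c2 was still called lower at P21 (-3.79) and Sult1c1 was not. Their order by age was P21, adult, aged, with no overlap between neighbouring ages, and reads of such related genes can be shared.

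Some MHC class II genes and Il33 were also lower at P21. Of 6 MHC class II genes tested, 3 were lower. The 8 MHC class I genes tested did not pass (median log2 fold change -0.48), with 2 of them, B2m and H2-D1, at an unadjusted edgeR p below 0.05. Over all genes tested, 11.3% were at such a p. Cd74, the invariant chain of MHC class II, measured 13.5 and 16.01 CPM at P21 against 57.2 and 42.0 CPM in the adult sections (-1.89 ± 0.39, edgeR adjusted p = 0.00723). H2-Aa had 0 UMIs in both P21 sections and was at least 6.02-fold lower, and H2-Eb1, likewise at 0, was at least 4.25-fold lower. Without the habenula-rich patches Cd74 and H2-Aa were still called and H2-Eb1 was not. Summed over the 7 listed genes, MHC class II stood at 53.9 and 52.0 CPM at P21 and 152 and 87.4 CPM in the adult, with Cd74 the most abundant. Il33, the gene of an alarmin cytokine, measured 9.80 and 20.01 CPM at P21 and 155 and 241 CPM in the adult sections (-3.92 ± 0.36, edgeR adjusted p = 3.89e-08). The other spots held 14.3 and 14.5 CPM of Il33 at P21 and 128 and 126 CPM in the adult, and the difference of the changes did not pass (-0.82 ± 0.42, edgeR adjusted p = 0.754). The 3 MHC class II calls were lost without P21 replicate 1, without adult replicate 1 and with DESeq2, while the median log2 fold change of the list was -3.80, -1.98 and -2.61 in these fits against -2.58 (-1.99 with genes at 0 set to their bound). Of 20 interferon-response genes tested, Ifi27 (-0.94) was lower and 19 were not called.

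Erythrocyte genes and some stromal genes were higher at P21. All 4 erythrocyte genes tested were called, as they were in the other spots (median log2 fold change 2.85, against 5.42 in the choroid plexus spots). Hbb-bs, a beta-globin gene, measured 1692 and 5999 CPM at P21, 100 and 63.0 CPM in the adult and 310 and 565 CPM in the aged sections (P21 vs. adult 5.42 ± 0.42, edgeR adjusted p = 1.15e-09). Another beta-globin gene, Hbb-bt (5.41), and the alpha-globin gene Hba-a2 (5.15) moved with it, and the globin genes have near-identical copies between which probes may not separate. Without the habenula-rich patches the change of Hbb-bs was 3.36 and 2 of the 4 genes were called, as were 2 without adult replicate 1.

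Among 15 fibroblast genes, 4 were higher at P21 and 11 were not called. Col3a1, a fibrillar collagen gene, measured 103 and 172 CPM at P21 against 9.76 and 6.996 CPM in the adult sections (3.78 ± 0.41, edgeR adjusted p = 9.98e-07). Col1a1 measured 135 and 220 CPM against 33.5 and 38.5 CPM (2.21 ± 0.31, edgeR adjusted p = 6.49e-05). Col3a1 was high in the habenula-rich patches, at 187 and 261 CPM, and measured 42.2 and 41.6 CPM in the patches of 12 and 6 spots away from the habenula, while the single spot of P21 replicate 2 held 203 CPM with 101 CPM of habenula genes. Without the habenula-rich patches Col3a1 (2.43) and the basement membrane collagen gene Col4a1 (1.75) were still called, and Col1a1 (0.86), Col1a2 (0.89) and Fn1 (1.24) were not. Without adult replicate 1, 2 fibroblast genes and 2 matrix genes were called. Of 18 basement membrane and matrix genes, 4 were higher at P21: Sparc (1.498), Col4a1 (2.14), Col4a2 (2.06) and Nid2 (1.004). In the other spots 8 of 13 matrix genes were higher at P21, with a median log2 fold change of 0.81 against 0.45 in the choroid plexus spots. Vwf, an endothelial gene, measured 56.4 and 72.0 CPM against 2.79 and 13.99 CPM (3.28 ± 0.52, edgeR adjusted p = 0.000287).

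Some genes of neighbouring regions were higher at P21. They were 3 of 5 habenula, 2 of 8 thalamus, 1 of 6 hippocampus and 0 of 7 striatum genes tested. Tac2 measured 244 and 200 CPM at P21 against 12.5 and 17.5 CPM in the adult sections (3.99 ± 0.38, edgeR adjusted p = 8.08e-08), and Calb2, a calcium-binding protein gene of habenula and thalamus, measured 270 and 244 CPM against 20.9 and 10.5 CPM (3.84 ± 0.29, edgeR adjusted p = 8.84e-10). Without the habenula-rich patches the change of Calb2 was 0.70 and was not called, while Tac2 belongs to the list by which those patches were left out, so that its lower change there (0.42) was set by that choice. Among sterol synthesis genes, 2 of 13 were higher at P21. Hmgcs1, which encodes an enzyme of the mevalonate pathway, measured 384 and 368 CPM against 176 and 210 CPM (0.98 ± 0.19, edgeR adjusted p = 0.00378), and the other spots had a change of 1.10. Mia, found in ependymal and choroid cells, measured 235 and 352 CPM against 117 and 97.9 CPM (1.32 ± 0.22, edgeR adjusted p = 0.000631).

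The second question was which transcripts differed between aged and adult mice. In the same edgeR fit, 1386 of 11040 genes (12.6%) were called, of which 571 (5.17%) were higher and 815 (7.38%) were lower in the aged sections. The median log2 fold change over all genes tested was 0.02, and sections did not overlap for 55.5% of them. In the other spots of the same sections 4.43% of genes were higher and 5.2% were lower. Without adult replicate 1 the fit called 309 genes and without aged replicate 2 it called 848, while DESeq2 called 405. Genes called higher included 18 of 21 interferon-response, 5 of 8 MHC class I, 7 of 27 epithelium and 8 of 23 secreted protein genes, and 12 of 15 neuron genes were called lower. Without the 3 habenula-rich patches 1865 genes were called, and all 37 of the named aged calls followed under that alternative remained.

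**Figure D4:**
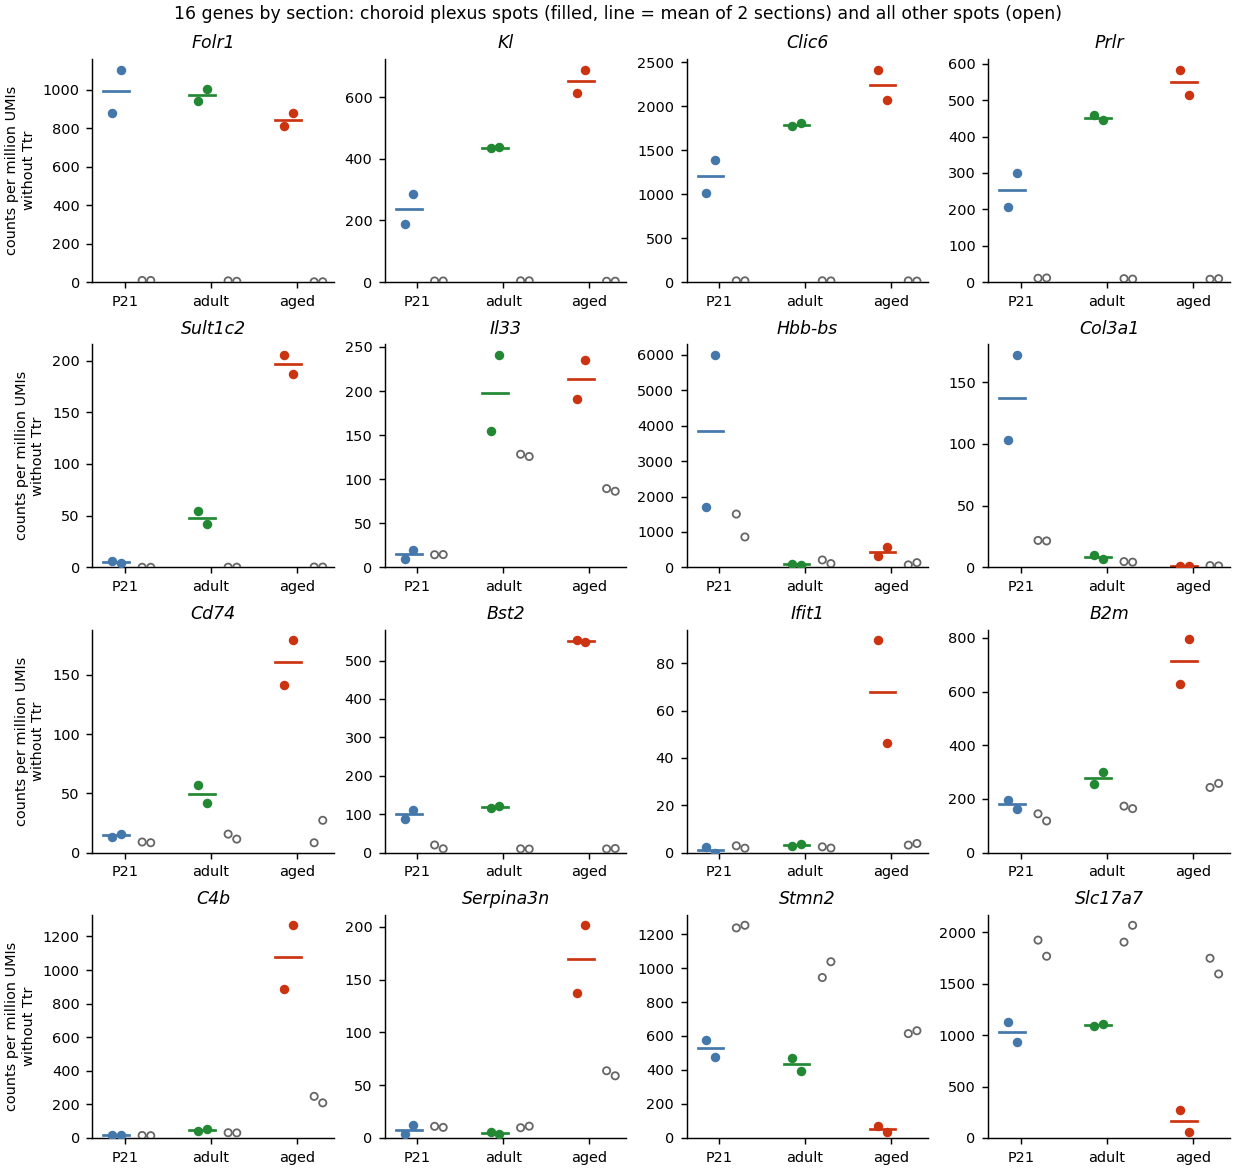
Levels of 16 genes by age in CPM without Ttr (filled: choroid plexus spots of each section, with a line at the mean of 2 sections; open: all other spots of the same sections). Bst2 stood at 553 and 548 CPM in the aged choroid plexus spots against 87.0 to 122 CPM in the 4 younger sections, whereas the other spots of the aged sections held 9.69 and 10.8 CPM.

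Of 21 interferon-response genes tested, 18 were higher in the aged sections and 3 were not called, with a median log2 fold change of 2.0 against 0.02 over all genes. The 24 listed genes summed to 680 and 815 CPM in the adult and 2935 and 2354 CPM in the aged sections, with Ifi27 the most abundant. P21 sections held 471 and 660 CPM. Bst2 (chr8:71534255-71537456, minus strand), which encodes tetherin, a protein that holds budding virus at the cell surface, measured 116 and 122 CPM in the adult and 553 and 548 CPM in the aged sections (2.23 ± 0.19, edgeR adjusted p = 1.08e-08). Ifitm3, which restricts viral entry, measured 57.2 and 70.0 CPM against 339 and 299 CPM (2.39 ± 0.22, edgeR adjusted p = 2.70e-08). For both genes the gap between the ages was several times the spread within an age. Of the 18 calls, 9 remained in number without adult replicate 1, 10 without aged replicate 1 and 8 with DESeq2.

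The antiviral gene Ifit1 (chr19:34640871-34650009, plus strand) measured 2.79 and 3.50 CPM in the adult and 89.7 and 46.2 CPM in the aged sections (4.46 ± 0.58, edgeR adjusted p = 6.14e-06). Usp18, which encodes a negative regulator of interferon signalling, measured 2.79 and 0 CPM against 63.8 and 42.4 CPM (4.65 ± 0.62, edgeR adjusted p = 7.94e-06). Aged replicate 1 was the higher of the aged sections for both of these sparse genes, and both aged sections were far above the adult sections. Rtp4, the gene of a chaperone for receptors, rose from 8.36 and 10.5 CPM to 99.7 and 78.3 CPM (3.30 ± 0.40, edgeR adjusted p = 2.40e-06). The transcription factor genes Irf9 and Irf7 were also called, at 1.14 and 2.14 on the log2 scale. Lgals3bp, a secreted glycoprotein gene, measured 128 and 105 CPM against 578 and 620 CPM (2.33 ± 0.19, edgeR adjusted p = 4.17e-09).

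The promoters of 3 of these genes and of B2m, an MHC class I gene, are shown because many interferon-induced genes share a regulatory element, the interferon-stimulated response element, to which a transcription factor complex with IRF9 binds. Each is the 250 bases before the RefSeq start site on GRCm38.p6, read on the strand of the gene: Bst2 at chr8:71537473-71537722 (minus strand), Ifit1 at chr19:34640639-34640888 (plus strand), Ifit3 at chr19:34583279-34583528 (plus strand) and B2m at chr2:122147437-122147686 (plus strand). Capitals mark matches to the letters GAAANNGAAA or, on the opposite strand, TTTCNNTTTC. Matches may overlap, as both do in Bst2.
Bst2: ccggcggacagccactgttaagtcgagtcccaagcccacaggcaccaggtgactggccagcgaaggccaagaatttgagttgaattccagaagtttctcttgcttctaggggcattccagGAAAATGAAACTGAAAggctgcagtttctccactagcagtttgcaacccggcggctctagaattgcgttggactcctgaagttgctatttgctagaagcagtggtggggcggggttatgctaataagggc
Ifit1: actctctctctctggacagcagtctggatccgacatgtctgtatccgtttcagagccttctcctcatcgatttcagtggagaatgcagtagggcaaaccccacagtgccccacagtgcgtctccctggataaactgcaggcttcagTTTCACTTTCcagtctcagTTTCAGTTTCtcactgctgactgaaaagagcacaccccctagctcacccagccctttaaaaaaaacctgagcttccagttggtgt
Ifit3: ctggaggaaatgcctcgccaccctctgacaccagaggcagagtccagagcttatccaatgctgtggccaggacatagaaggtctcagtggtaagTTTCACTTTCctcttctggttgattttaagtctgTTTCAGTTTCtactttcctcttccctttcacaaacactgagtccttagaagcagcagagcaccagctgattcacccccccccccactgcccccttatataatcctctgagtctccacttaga
B2m: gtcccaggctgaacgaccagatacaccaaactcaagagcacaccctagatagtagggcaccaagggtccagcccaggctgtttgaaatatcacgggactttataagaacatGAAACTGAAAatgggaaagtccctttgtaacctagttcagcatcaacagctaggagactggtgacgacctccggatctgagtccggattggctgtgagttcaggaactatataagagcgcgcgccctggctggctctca
Bst2, Ifit1 and Ifit3 held 2 matches each and B2m held 1. Of 32851 promoters in the RefSeq table, 2.98% held these letters. Counted by gene, with a match in any of its promoters, 936 of 27025 genes did. Of 27 interferon-response genes listed, 21 had a promoter in the table and 11 of them held a match, while 2 of 9 MHC class I genes and 0 of 23 epithelium genes did. Among the 18 genes called higher in the aged sections, 13 had a promoter in the table and 6 of them held a match. A match is a run of letters and not a measured binding site, and Ifitm3 and Irf7 had no match in this window.

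MHC genes were also among those higher in the aged sections. Of 8 MHC class I genes, 5 were higher and 3 were not called (median log2 fold change 1.33), and 3 were called without adult replicate 1. B2m, the light chain of MHC class I, measured 256 and 301 CPM in the adult and 629 and 797 CPM in the aged sections (1.39 ± 0.19, edgeR adjusted p = 9.84e-06). H2-K1 measured 25.1 and 17.5 CPM against 92.7 and 92.4 CPM (2.03 ± 0.33, edgeR adjusted p = 9.23e-05), and H2-D1 measured 58.5 and 31.5 CPM against 122 and 244 CPM (1.86 ± 0.30, edgeR adjusted p = 9.28e-05). These genes belong to a family whose members are close copies, so that levels of single members are uncertain. Of 6 MHC class II genes, 3 were higher, and 1 was called without adult replicate 1. Cd74 measured 57.2 and 42.0 CPM against 142 and 180 CPM (1.62 ± 0.24, edgeR adjusted p = 2.66e-05), and H2-Aa 18.1 and 13.99 CPM against 48.8 and 55.2 CPM (1.62 ± 0.37, edgeR adjusted p = 0.00377).

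Interferon-response and MHC class I transcripts were followed by distance from the choroid plexus spots. In CPM of all UMIs, Ttr included, which lowers values in the choroid plexus spots, the interferon-response list in the aged sections was highest in the choroid plexus spots (2452 and 1915 CPM), lower in the adjoining spots (830 and 887 CPM) and lowest at 5 or more steps (195 and 228 CPM). In the adult sections it was 583 and 704 CPM in the choroid plexus spots and 181 and 165 CPM at 5 or more steps. MHC class I genes in aged replicate 2 were higher in the adjoining spots (1743 CPM) and at 2 steps (1687 CPM) than in the choroid plexus spots (1288 CPM). In aged replicate 1 they stood at 1054 CPM in the choroid plexus spots and at 848, 867, 891 and 718 CPM over the next 4 steps, against 384 CPM farther away. In all 4 aged patches the interferon list stood above the adult level: it measured 3186, 1768 and 1854 CPM in the 3 patches of aged replicate 1, of which the second held 12656 CPM of neuron genes, and 2354 CPM in aged replicate 2. The large adult patches measured 680 and 748 CPM, and the single adult spot that stood apart measured 1217 CPM.

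**Figure D5:**
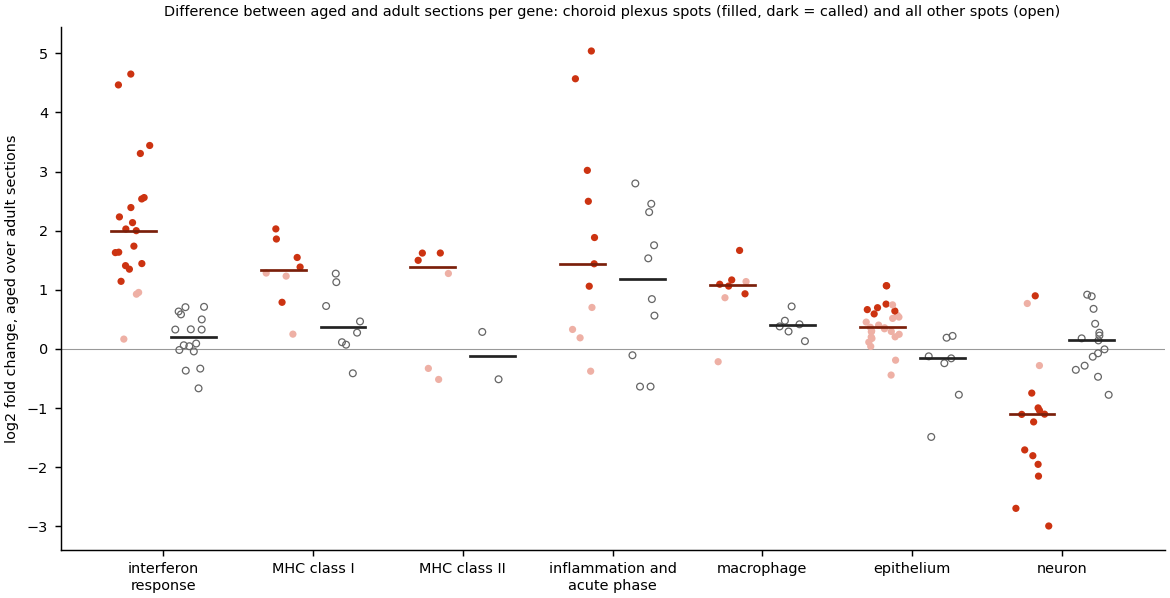
Log2 fold change of aged over adult sections for each gene of 7 lists (filled: choroid plexus spots, dark where called; open: all other spots; lines: medians). The interferon-response median was 2.0 in the choroid plexus spots and 0.21 in the other spots, whereas the medians for inflammation and acute phase were 1.44 and 1.19. Medians of the other spots leave out genes not tested there. For interferon response they cover 16 genes against 21, and for inflammation and acute phase 10 against 11.

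Complement and inflammation genes included large rises. Of 11 tested, 7 were higher in the aged sections and 4 were not called, and 3 were called without adult replicate 1. C4b, complement component 4, measured 40.4 and 56.0 CPM in the adult and 887 and 1265 CPM in the aged sections (4.57 ± 0.25, edgeR adjusted p = 6.69e-13), and a close copy of this gene exists. Serpina3n, an acute-phase protease inhibitor gene, measured 5.58 and 3.50 CPM against 138 and 202 CPM (5.04 ± 0.41, edgeR adjusted p = 4.10e-09). Both genes also rose in the other spots, by 2.80 and 2.45 on the log2 scale, and rose by more in the choroid plexus spots (differences 1.69 ± 0.27 and 2.49 ± 0.55, edgeR adjusted p = 1.38e-05 and 0.00162). C3 measured 4.18 and 21.0 CPM against 60.8 and 91.1 CPM (3.02 ± 0.45, edgeR adjusted p = 3.91e-05).

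Of 8 macrophage genes tested, 5 were higher in the aged sections, and they were C1qa, C1qb, C1qc, Tyrobp and Csf1r, which microglia share. C1qa, the most abundant, measured 124 and 136 CPM in the adult and 187 and 352 CPM in the aged sections (1.06 ± 0.24, edgeR adjusted p = 0.00257). With the summed neuron genes as a covariate, C1qa turned lower, no macrophage gene was called and the list median was 0.01 against 1.08. The list of 15 genes summed to 392 and 427 CPM in the adult and 670 and 1032 CPM in the aged sections, with 3 and 4 genes at 0 in the adult and 1 and 0 at 0 in the aged sections. The border macrophage gene Mrc1 stood at 2.79 and 10.5 CPM against 8.97 and 14.1 CPM, and Pf4 stood at 2.79 and 17.5 CPM against 9.97 and 1.28 CPM. No macrophage gene was called without adult replicate 1, and 2 were without aged replicate 2. The 12 T and B cell genes, led by Ighm, summed to 43.2 and 70.0 CPM in the adult and 45.9 and 35.9 CPM in the aged sections, and the 8 microglia genes summed to 347 and 455 CPM against 523 and 688 CPM. The part of immune cells in the interferon and MHC results was not tested.

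A minority of epithelium genes were higher in the aged sections. Of 27 tested, 7 were called higher and 20 were not called, with a median log2 fold change of 0.37. Ace measured 559 and 588 CPM in the adult and 1278 and 1095 CPM in the aged sections (1.07 ± 0.18, edgeR adjusted p = 0.000190). Otx2, a transcription factor gene that maintains this epithelium, measured 105 and 101 CPM against 244 and 184 CPM (1.07 ± 0.22, edgeR adjusted p = 0.00135). The others were Lbp (0.76), F5 (0.70), Trpv4 (0.67), Slc4a5 (0.64) and Kl (0.59 ± 0.18, edgeR adjusted p = 0.0303, from 435 and 437 CPM to 615 and 689 CPM). The call of Kl was lost when any 1 of the 6 sections was left out. Folr1 at -0.19 ± 0.17, Clic6 at 0.34 ± 0.18 and Enpp2 at 0.54 ± 0.20 did not pass. Without adult replicate 1 a single epithelium gene was called, 3 were without adult replicate 2 and 4 were without either aged section. With the sums scaled to the epithelium genes themselves, which centres this list by construction, 13 interferon-response, 4 MHC class I, 5 inflammation and 1 macrophage gene were still called higher, while the median of all genes moved to -0.43 and the split became 91 higher and 1698 lower. Under this scaling 3 heat shock and immediate early genes were called in place of 9 and 1 MHC class II gene in place of 3. Transport and secreted protein genes under this scaling are given below.

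Of 26 ion and water transport genes, 5 were higher in the aged sections, and 1 was called without adult replicate 1 or without aged replicate 1, 2 without aged replicate 2 and 3 without adult replicate 2. Car14, a membrane-bound carbonic anhydrase gene, measured 177 and 161 CPM in the adult and 360 and 347 CPM in the aged sections (1.06 ± 0.18, edgeR adjusted p = 0.000203). Of 23 secreted protein genes, 8 were higher, and 3 were called without adult replicate 1, 4 without adult replicate 2 and 5 without aged replicate 1. Apod, a lipid-binding apolipoprotein gene, measured 703 and 784 CPM against 2481 and 5016 CPM (2.35 ± 0.24, edgeR adjusted p = 1.36e-07), and Trf measured 1177 and 1340 CPM against 2095 and 2341 CPM (0.84 ± 0.18, edgeR adjusted p = 0.00184). Apoe (1.36) and the chaperone gene Clu (0.66) rose as well. With the sums scaled to the epithelium genes, 0 ion and water transport and 3 secreted protein genes were called higher. The medians of these 2 lists were then -0.14 and 0.05 on the log2 scale, against 0.32 and 0.51. With the summed neuron genes as a covariate, 0 genes of either list were called higher, with medians of 0.23 and 0.35. Ptgds, the prostaglandin D synthase gene, measured 750 and 696 CPM against 1712 and 1273 CPM (1.06 ± 0.18, edgeR adjusted p = 0.000210). Igf2 (0.42 ± 0.17) and Igfbp2 (-0.33 ± 0.19) did not pass, while Igfbp5, a binding protein for insulin-like growth factors, measured 142 and 262 CPM against 478 and 361 CPM (1.17 ± 0.23, edgeR adjusted p = 0.000811). Among 24 nutrient and hormone transport genes, Slc16a8 (1.26) and Slc2a12 (0.70) were higher, and the transferrin receptor gene Tfrc (-0.83) was lower.

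Of 15 fibroblast genes tested, 1 was higher in the aged sections, 3 were lower and 11 were not called. Their median log2 fold change was 0.42, against -0.64 in the other spots, where 6 of 10 were lower. The fibrillar collagen genes Col1a1 and Col3a1 were lower in the choroid plexus spots. Col1a1 measured 33.5 and 38.5 CPM in the adult and 13.95 and 6.42 CPM in the aged sections (-1.69 ± 0.44, edgeR adjusted p = 0.00968), and Col3a1 measured 9.76 and 6.996 CPM against 0.997 and 1.28 CPM (-2.78 ± 0.91, edgeR adjusted p = 0.0408). The aged counts of Col3a1 lay below the floor of 3 counts over the group, so that the size of its fall is uncertain. Over the 3 ages, Col1a1 and Col3a1 were highest at P21 and lowest in the aged sections, with no overlap between neighbouring ages. Neither aged vs. adult call remained without adult replicate 1 or without aged replicate 2. Insig1, a feedback regulator of sterol synthesis, measured 153 and 168 CPM against 88.7 and 82.1 CPM (-0.87 ± 0.20, edgeR adjusted p = 0.00377). It was the only gene called of 13 sterol synthesis genes.

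Stress genes were higher, and unequally so, in the aged sections. Of 17 heat shock and immediate early genes, 9 were higher, and 4 were called without adult replicate 1 and 5 without aged replicate 1. In the other spots 10 of 17 were higher, with a median log2 fold change of 0.79 against 0.98 in the choroid plexus spots. Hspa1b, an inducible heat shock gene, measured 9.76 and 6.996 CPM in the adult and 215 and 46.2 CPM in the aged sections (3.91 ± 0.60, edgeR adjusted p = 5.12e-05). It also stood at 98.0 and 31.6 CPM in the other spots of the aged sections against 17.5 and 17.9 CPM in the adult, with aged replicate 1 the higher in both. Gfap, an astrocyte gene, measured 230 and 245 CPM against 950 and 936 CPM (2.01 ± 0.19, edgeR adjusted p = 2.70e-08), and erythrocyte genes were higher in the aged sections (4 of 4), with Hbb-bs at 310 and 565 CPM against 100 and 63.0 CPM.

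Neuron genes were lower in the aged sections, 12 of 15 by the test and 7 without adult replicate 1, with a median log2 fold change of -1.11 against 0.15 in the other spots. Stmn2, a growth cone gene, measured 470 and 395 CPM in the adult and 68.8 and 37.2 CPM in the aged sections (-2.99 ± 0.23, edgeR adjusted p = 2.11e-09). Slc17a7, the vesicular glutamate transporter gene of cortical and hippocampal neurons, measured 1087 and 1109 CPM against 272 and 53.9 CPM (-2.69 ± 0.33, edgeR adjusted p = 3.01e-06). Without the habenula-rich patches the change was -4.40 for Slc17a7 and -3.56 for Stmn2, and the median of the neuron list was -1.64. That median was -1.83 without aged replicate 1 and -0.86 without aged replicate 2. Gad2, of inhibitory neurons, was higher (0.90), as were Penk and Rgs9 of the striatum. With the summed neuron genes as a covariate, the edgeR fit called 34 genes in aged vs. adult in place of 1386, and that sum did not overlap between the aged and adult sections. In that fit 9 interferon-response genes were called higher in place of 18. The same counts were 3 in place of 9 for heat shock and immediate early genes and 2 in place of 7 for inflammation genes. The medians of these lists were 2.74, 1.25 and 1.02 on the log2 scale, against 2.0, 0.98 and 1.44. No neuron, epithelium, MHC, macrophage, ion and water transport or secreted protein gene was called in the direction given above. The median log2 fold change in that fit was 0.27 for epithelium, 0.82 for MHC class I and 1.02 for MHC class II genes, against 0.37, 1.33 and 1.39 without the covariate, whereas it was 0.01 for macrophage and 0.14 for neuron genes. Because the neuron genes make up the covariate, the loss of their calls was set by the fit and does not test them. The part of neighbouring tissue in the single results was not tested beyond that fit.

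The last question was whether the age effects in the choroid plexus spots differed from those in the other spots of the same sections. The test was an interaction in an edgeR fit of 12 sums, with each section as a block. What cancels is a shift of equal fold in the chosen and the other spots of a section. An influence of unequal size in these spots stays in the difference. In the other spots, the epithelium list without Ttr summed to 487 and 430 CPM in the adult and 321 and 349 CPM in the aged sections. The part of the slide version in the aged vs. adult differences was not tested. In P21 vs. adult, 67 of 16000 genes (0.419%) differed, 30 (0.188%) upward and 37 (0.231%) downward in the choroid plexus spots. In aged vs. adult, 968 of 16000 genes (6.05%) differed, 287 (1.79%) upward and 681 (4.26%) downward. Without adult replicate 1 these counts were 36 and 240, and without aged replicate 2 the aged count was 575. Of 24 interferon-response genes, 11 had the higher aged effect in the choroid plexus spots, 5 without adult replicate 1 and 6 without aged replicate 1.

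Bst2 differed between aged and adult by 2.23 in the choroid plexus spots and by -0.02 in the other spots (difference 2.18 ± 0.21, edgeR adjusted p = 3.14e-10). For Ifitm3 these values were 2.39 and 0.33 (difference 2.02 ± 0.23, edgeR adjusted p = 6.73e-08). For B2m they were 1.39 and 0.47 (difference 0.84 ± 0.17, edgeR adjusted p = 0.000789). H2-D1 and H2-K1 rose in both, by 1.13 and 1.27 in the other spots, and their differences did not pass (0.66 ± 0.26 and 0.73 ± 0.41, edgeR adjusted p = 0.136 and 0.401). When only spots 2 to 5 steps away served as the other spots, 290 genes differed in aged vs. adult, 2 interferon-response genes had the higher aged effect in the choroid plexus spots (median difference 0.92, against 1.78 with all other spots), and 0 of the MHC class I genes did in place of 2 (median difference 0.01, against 0.73).

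Of 27 epithelium genes, 12 had the higher aged effect in the choroid plexus spots and 9 had the lower P21 effect there, of which 2 were left in number without P21 replicate 1 and 4 without adult replicate 2. With spots 2 to 5 steps away as the other spots, these counts were 10 and 1, with median differences of 1.10 and -0.64 against 0.82 and -0.86. For Folr1 the aged effect differed by 1.64 ± 0.20 (edgeR adjusted p = 1.48e-07) although its change in the choroid plexus spots themselves did not pass (-0.19 ± 0.17). Its level in the other spots was 6.39 and 4.01 CPM in the adult and 1.41 and 1.57 CPM in the aged sections. Ttr was also lower in these other spots, and the part of the slide version in that was not tested. Ace, by contrast, stood at 14.4 and 13.4 CPM in the other spots of the adult and 16.3 and 17.8 CPM in those of the aged sections, with a difference of 0.80 ± 0.17 (edgeR adjusted p = 0.000820). Prlr had a lower P21 effect in the choroid plexus spots (difference -1.24 ± 0.18, edgeR adjusted p = 5.16e-05), with 10.4 and 11.3 CPM in the other spots at P21 and 9.42 and 8.22 CPM in the adult. Lgals3bp had the lower P21 effect (-2.01 ± 0.27, edgeR adjusted p = 4.47e-06) and the higher aged effect (1.33 ± 0.18, edgeR adjusted p = 1.12e-06), and its level in the choroid plexus spots went up with each age, from 44.1 and 40.0 CPM at P21 to 128 and 105 CPM and then 578 and 620 CPM.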

How the data were processed

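The authors cut FFPE sections of 5 μm, made Visium libraries with the mouse probe panel and aligned probe reads to mm10 with Space Ranger, which the file headers give as version 2.0.0 in P21 and adult and 3.1.1 in aged mice, while the submitters' processing notes name Space Ranger 2.1.0 and Seurat 5.1.0. Each deposited count is the number of UMIs of a gene in a tissue-covered spot, for 19465 genes, as the authors' pipeline gave it, with neither normalization nor pooling of sections. The deposited tables of spatial enrichment were not used here. Barcodes mark slide positions, so that 2607 to 2992 were shared among P21 and adult sections and 3363 between aged sections.

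Spots under 500 UMIs were removed (1 to 4 per section). The choroid plexus spots and all gene lists were chosen with earlier results of these data known. UMIs without Ttr were summed per section. edgeR 4.0.16 in R 4.3.3 fitted the 6 sums on age alone (TMM scaling, glmQLFit, glmQLFTest). Genes were tested if kept by filterByExpr and counted in over 10% of the chosen spots at either age. Benjamini-Hochberg adjusted p below 0.05 and a fold over 1.5 made a call. The SE was taken as the log2 change over the root of its F statistic. The difference test fitted 12 sums (chosen and other spots, section as block). The criterion of 4 times was set on log2 ratios with a pseudocount of 1 CPM, and printed ratios carry none. Where an age had 0 UMIs, a bound was set at a floor of 3 counts over the group, which covers counting error only. Symbols listed more than once (11) were kept apart by identifier. Probe efficiencies differ, so that genes called most abundant are those with the most UMIs in their list. Named genes were the 4 markers, the 4 most abundant and every called member of each list, the 8 largest rises and falls of each comparison with sections that did not overlap and at least 20 CPM, the 5 smallest p of each difference test, and the 10 largest ratios to other spots; the text gives a selection of these. On data simulated from the real sums, 100 genes were changed at each fold, all with a mean above 20 CPM in the chosen spots. For the difference fits they also had a mean above 5 CPM in the other spots. Of these changes, the P21 fit recovered 44.0% at 2-fold and 91.0% at 4-fold, with 10745 genes in the fit. The aged fit recovered 54.0% and 87.0%, with 10768 genes. The difference fits recovered 43.0% and 49.0% of 2-fold changes, with 14800 and 14803 genes. Recovery of sparser genes was not simulated. Alternatives changed the test (DESeq2 1.42.0), scaling, filter, Ttr threshold, depth, the spots compared, covariates and the sections included. Promoters are RefSeq sequences of GRCm38.p6, and gene positions are from GENCODE vM21. Some genes are not reported here.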

Additional observations from a re-analysis of the deposited data

Results flagged for a closer look

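The age effect of 41 values differed between the choroid plexus spots and the other spots of the same sections by the edgeR interaction test. Differences are log2 fold changes in the choroid plexus spots minus those in the other spots, so that a positive value stands for the higher age effect in the choroid plexus spots.

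In P21 vs. adult, the secreted glycoprotein gene Lgals3bp and some genes of the epithelium and its secretion had negative differences. They were -2.01 for Lgals3bp, -1.32 for the retinol dehydrogenase gene Rdh5, -1.24 for the prolactin receptor gene Prlr, -1.09 for F5, -1.01 for Ace, -0.86 for Kl and -0.77 for Igf2, with edgeR adjusted p between 4.47e-06 (Lgals3bp) and 0.0234 (Kl). Igf2 itself was not called in the choroid plexus spots. A higher P21 effect was found for 2 of 5 erythrocyte, 1 of 11 endothelium, 2 of 8 habenula and 2 of 8 thalamus genes. It was found for 0 of 8 hippocampus and 0 of 8 striatum genes. Some genes of blood, vessels and neighbouring nuclei thus had positive differences. They were 2.40 for Hbb-bs and 2.46 for Hba-a2 (hemoglobin), 2.95 for the endothelial gene Vwf, 1.75 for the fibronectin gene Fn1, 2.27 for Tac2 and 2.14 for Calb2, with edgeR adjusted p between 0.000133 (Calb2) and 0.0306 (Fn1). Tac2 and Calb2 were concentrated in the habenula-rich patches of the P21 sections, at 552 and 366 CPM and at 598 and 440 CPM.

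In aged vs. adult, Lgals3bp and some interferon, antigen presentation and inflammation genes had positive differences. They were 4.05 for Usp18, 3.90 for Ifit1, 3.62 for Rtp4, 2.18 for Bst2, 2.02 for Ifitm3, 1.33 for Lgals3bp, 0.87 for Ifi27, 0.84 for B2m, 1.52 for Cd74, 2.49 for Serpina3n and 1.69 for C4b, with edgeR adjusted p between 3.14e-10 (Bst2) and 0.00162 (Serpina3n). Both Serpina3n and C4b also rose in the other spots. Against spots 2 to 5 steps away no MHC class I gene had the higher aged effect, and the median difference of that list was 0.01 in place of 0.73. Epithelium and secreted protein genes followed with 1.64 for Folr1, 1.18 for Kl, 1.24 for Enpp2, 1.45 for Lbp, 0.80 for Ace, 0.76 for Car14, 1.27 for Trf, 1.16 for Ptgds, 1.45 for Apod, 1.37 for Igfbp5 and 0.79 for Igf2. For Folr1, Enpp2 and Igf2 the change in the choroid plexus spots did not pass, and for Folr1 and Enpp2 the level in the other spots was lower in both aged than in both adult sections. Oligodendrocytes also express Trf and Apod, and of 10 oligodendrocyte genes 4 had the higher aged effect. The list, led by Mbp, summed to 17065 and 21099 CPM in the choroid plexus spots of the adult and 17299 and 22896 CPM in those of the aged sections, against 13176 and 12771 CPM and 8327 and 8142 CPM in the other spots, where 7 of the 10 genes were lower. Its part in these results was not tested. The astrocyte gene Gfap had a difference of 1.14 and the heat shock gene Hspa1b one of 1.96. Negative differences were -2.63 for Slc17a7, -2.32 for Stmn2 and -1.55 for Snap25 among neuron genes, and -0.88 for Insig1.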

How the results depend on the processing

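Of 1627 values of 75 gene changes (a gene in both comparisons counts under each) recomputed under 22 settings, 1437 kept direction and side of the threshold, 159 kept direction without passing, 4 newly passed, 24 moved and 3 reversed. The reversed values came with the summed neuron genes as a covariate, under which the aged vs. adult changes were -0.54 for C1qa, 0.079 for Slc17a7 and 0.13 for Snap25. Slc17a7 and Snap25 are among the genes summed in that covariate, so that their reversal does not test the neuron result. That covariate left 34 aged calls, while DESeq2 gave 57 calls for P21 and 405 for aged against adult. Thinning every sum to 249862 UMIs gave 93 and 632. The aged sums were deeper than the adult sums, and thinning removes more of their UMIs. With the spots 2 to 5 steps away as the other spots, 26 and 290 genes differed in age effect, and 269 genes were at least 4 times higher in every section. A Ttr threshold of 50000 CPM gave 33 differing genes in P21 vs. adult, and no filter but 1 UMI gave 102. Leaving out 1 section gave 42 to 205 calls in P21 vs. adult, 309 to 1498 in aged vs. adult, and 36 to 96 and 240 to 1161 differences in age effect. In such fits the lone section of an age was assumed to vary like the others. The cause of these shifts was not tested, apart from the smaller number of sections or UMIs. Scaling to the epithelium genes, chosen after seeing the data, moved the median of all genes to 0.23 and -0.43 and the split of calls to 133 higher and 18 lower for P21 and to 91 higher and 1698 lower for aged, against 106 and 79 and 571 and 815. Leaving out the habenula-rich patches, also chosen after seeing the data, gave 136 calls (88 shared) and 1865 calls (1363 shared). Replicate numbers were shared by the labels, but deviations of same-numbered sections correlated at 0.052, 0.021 and 0.101 over 9280 genes, so that sections shared only a number, and the replicate block gave 204 and 1461 calls.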

Other observations

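The lists of daily and metabolic activity held few called genes. Of 14 clock genes tested, Nr1d1, a repressor of the clock, was lower at P21 (-0.93), and Per1 (1.02) and Per2 (1.33), which light and stress hormones also induce, were higher in the aged sections, with a list median of 0.07. The mice were kept in a 12-hour light and dark cycle, and the hour of collection was not used here. For 21 genes of mitochondrial respiration, the list medians were -0.17 for P21 and -0.09 for aged against adult. Insulin-like growth factor genes were led by Igfbp2 and Igf2, and 2 of 13 were higher at P21 (Igfbp4, 1.25, and Igfbp7, 0.81).

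Within the heat shock and immediate early list, Sgk1 (0.98), Tsc22d3 (1.25) and Fkbp5 (1.33), each known to respond to glucocorticoids, were called higher in the aged choroid plexus spots. Within the inflammation list, the lysosomal glycoprotein gene Gpnmb (2.50), the osteopontin gene Spp1 (1.88), the galectin gene Lgals3 (1.06) and the cell cycle inhibitor gene Cdkn1a (1.44) were called higher too, and Cdkn1a was also higher at P21 (1.37). These genes were singled out after their values were seen. The sterol list stood at a median of 0.32 at P21 and -0.51 in the aged sections, with Hmgcs1 and Cyp51 (0.99) called higher at P21 and Insig1 called lower in the aged sections.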
